A study of Bos taurus with 3 samples.

Results

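KRTDAP-high epithelial cells of the newborn rumen are described here as a part of single-cell RNA profiles from 3 newborn dairy calves. A barcode was kept with 500 to 4000 detected genes, at most 50000 transcript molecules (unique molecular identifiers, UMIs) and at most 40% of UMIs in the 13 mitochondrial coding genes. A kept cell was called epithelial when KRT5, KRT14 and KRT15, the keratins of the basal layer, together reached at least 10 of every 10000 UMIs and when no UMI of PTPRC (immune cells), PECAM1 (endothelial cells) or COL3A1 (fibroblasts) was present. Epithelial cells with at least 10 KRTDAP UMIs per 10000 were the members. They numbered 240 of 21884 epithelial cells, with 71 of 4637 in calf 1, 162 of 9122 in calf 2 and 7 of 8125 in calf 3. The other 21644 epithelial cells, in which KRTDAP stayed under 10 per 10000, served as the comparison within each calf. The members were chosen by the measured KRTDAP and basal keratin of each cell. The calves were sampled 1 day after birth from the ventral sac of the rumen, and the labels name no treatment, genotype or agent for any of them. Each calf gave 1 library, so a calf and its library cannot be told apart.

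The rumen is lined by a stratified squamous epithelium that is renewed from its deepest layer. Basal cells are anchored to the basement membrane by hemidesmosomes and are the main dividing cells, spinous cells above them are held together by many desmosomes and change their keratins, and granular and cornified cells build the surface barrier. KRTDAP encodes keratinocyte differentiation-associated protein, a small secreted protein known from suprabasal layers of skin. In ruminants the same epithelium absorbs short-chain fatty acids and makes ketone bodies from them once the rumen works.

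The libraries held 7529, 12043 and 11656 barcodes with 82263092, 89803289 and 106145091 UMIs, and 4886, 10654 and 10480 barcodes were kept. Between 21 and 37 cell barcodes were shared by any pair of libraries, and 0 of them belonged to a member. The members held 801226, 1761511 and 64359 UMIs in calves 1, 2 and 3, so the members of calf 3 were measured with far less depth than those of the other calves. The largest member of calf 3 held 26455 of its UMIs, and 3 of its 7 members had under 2000. A single cell can therefore set a member level of calf 3. Median UMIs per member were 10002, 9083.5 and 7700, against 10324, 6790.5 and 8034 in the other epithelial cells. The median mitochondrial share was 11.02%, 11.1% and 8.84% in members and 5.33%, 5.56% and 5.64% in the other epithelial cells, and 88 of the 240 members exceeded 15%. The part of this share in the differences given below was not tested beyond the limit of 15% named there.

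The members made up 1.53% of epithelial cells in calf 1 (exact 95% Clopper-Pearson interval 1.198 to 1.93), 1.78% in calf 2 (1.51 to 2.07) and 0.0862% in calf 3 (0.0346 to 0.177). The intervals cover counting error only. Calves 1 and 2 had overlapping intervals and calf 3 was far below both, and the mean over calves was 1.13% ± 0.913 (SD, n = 3).

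KRTDAP itself, which chose the members and is therefore given without a test, had a median over member cells of 17.5, 23.7 and 15.1 UMIs per 10000 in calves 1, 2 and 3, with maxima of 156, 271 and 25.6. Since the limit cuts a continuous range, 37 members lay between 10 and 12 per 10000 and 43 other epithelial cells between 8 and 10. The call rested on at most 4 KRTDAP UMIs in 32 members and on 1 UMI in 1 member. At least 1 KRTDAP UMI was present in 13.9%, 11.1% and 0.653% of the other epithelial cells. Pooled over calves, cell classes that should lack the gene had a KRTDAP UMI in 0.364% (immune), 3.20% (endothelial) and 1.18% (fibroblast) of cells, at median depths of 6157, 5061 and 2244 UMIs. By calf, the endothelial share was 13.2%, 6.20% and 0.474% (38, 258 and 422 cells), at median depths of 4657, 4444 and 5357.5 UMIs. In calf 1 it was thus close to the share of the other epithelial cells. The part of free RNA in low KRTDAP counts was not tested. The basal keratins, also used by the rule, together had medians of 36.0, 59.5 and 28.7 per 10000 in members and 177, 170 and 153 in the other epithelial cells.

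The spinous label was checked against marker genes. KRTDAP, KRT6A, KRT10, SBSN, DMKN, S100A8 and S100A9 were detected in members of calves 1 and 2, SBSN was at 0 in calf 3, and KRT1, a defining spinous keratin of skin, was at 0 in the members of every calf. The summed level of the 8 spinous markers, which includes KRTDAP, was 87.2, 196 and 84.4 per 10000 in members and 5.84, 6.11 and 4.51 in the other epithelial cells, with no overlap. The 6 basal markers summed to 56.9, 103 and 57.3 in members against 197, 210 and 171. The 6 granular markers summed to 8.37, 8.38 and 9.17 in members, within the range of 5.73 to 9.73 in the other epithelial cells, and LOR, a protein of the cornified envelope, was at 0 in all members. Single granular markers went in opposite directions. IVL was higher and CLDN1 and DLK2 were lower in members of every calf, as given below, so the sum does not show that these genes were unchanged. KRTDAP and the basal keratins were set by the rule, so the spinous and basal sums are descriptions and no check of the label.

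Markers of other cell types were scarce. The 11 immune markers summed to 0.0374, 0.0738 and 0.155 per 10000 in members against 0.125 to 0.791 in the other epithelial cells, with CD3E, CD52, LAPTM5 and CD79A at 0 in members of every calf, and the 8 endothelial markers summed to at most 0.155. The neutrophil genes CSF3R, FCN1 and CXCR2 were at 0 in members, while S100A12, which neutrophils also make, was abundant. No UMI of the 4 melanocyte or the 4 Merkel cell markers was found in a member. Fibroblast markers were lower than in the other epithelial cells, at 0.387, 0.727 and 0 against 4.30, 4.02 and 2.81, and most of that sum was DCN, the matrix proteoglycan decorin. DCN reached 0.300, 0.596 and 0 per 10000 in members against 4.09, 3.80 and 2.47, a log2 difference of -3.34 ± 0.29 (SE), and a DCN UMI was present in 15.8% of members and 62.0% of the other epithelial cells. The median over member cells was 0 for DCN, as for CD3E. PTPRC, PECAM1 and COL3A1 count among these markers, and the rule set them to 0 in both groups.

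**Figure D1:**
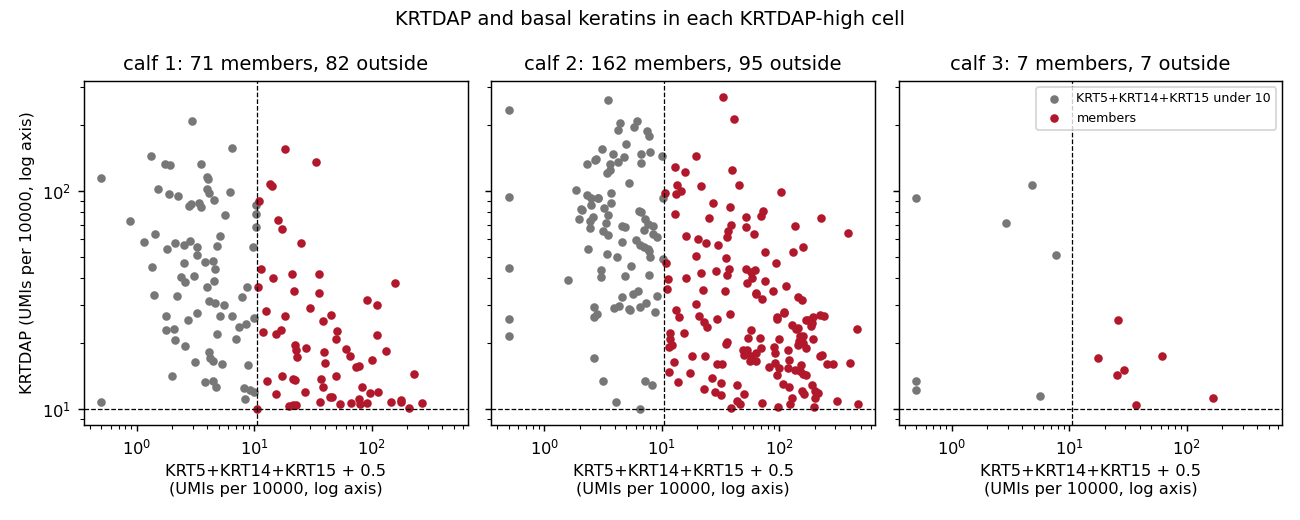
Each point is a kept cell with KRTDAP of at least 10 UMIs per 10000 (y axis, log scale), placed by the sum of KRT5, KRT14 and KRT15 per 10000 plus 0.5 (x axis, log scale) in each calf, and the dashed lines mark the limits of 10. The 240 members (red) lie right of the vertical line, and the 184 cells with less basal keratin (grey; 82, 95 and 7) cover the same range of KRTDAP (10.03 to 261, against 10.05 to 271 in members).

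Compared with the other epithelial cells of the same calf, the members had more transcript of most suprabasal keratins, cornified envelope genes, protease inhibitors and S100 proteins that were tested and of the connexins GJB2 and GJA1, and less transcript of most genes that anchor basal cells. UMIs were summed per calf and group, and 12481 genes were tested with the quasi-likelihood method of edgeR, blocked by calf, with Benjamini-Hochberg adjustment. It called 2596 genes (20.8%) at an adjusted p under 0.05, of which 855 (6.85%) were higher and 1741 (13.9%) lower in members. The counts per list below are to be read beside these shares of all genes. The 3 calves did not overlap between groups for 997 genes that were higher in members (7.99% of all tested) and for 3166 that were lower (25.4%). The median log2 difference over all tested genes was -0.31, so a gene at 0 on this scale lies above the typical gene, and the genes the rule used were left out. The count was 2052 without calf 3, which held 7 members (957 or 7.89% higher and 1095 or 9.03% lower), 1720 without calf 1 and 432 without calf 2, which held 162 of the 240 members. At most 15% mitochondrial UMIs left 1621 calls, of which 1572 were among the 2596.

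Most suprabasal keratins tested were higher in members. KRT4, a keratin of non-cornified stratified epithelia, stood at 120, 174 and 58.6 UMIs per 10000 in members of calves 1, 2 and 3 and at 14.7, 9.30 and 1.89 in the other epithelial cells. Every member value lay above every other value, although calf 3 was lowest in both groups, and the log2 difference was 3.87 ± 0.28 (SE; edgeR adjusted p = 6.1e-41). KRT4 was chosen as a marker with these data known, and 58.5%, 46.1% and 17.0% of the other epithelial cells also had a KRT4 UMI when each cell was thinned to 2000 UMIs (members 96.9%, 99.3% and 100%). KRT6A, a keratin of suprabasal and regenerating cells, reached 7.93, 29.1 and 16.5 against 0.197, 1.17 and 0.314 (log2 difference 5.02 ± 0.27), and KRT6B 0.250, 7.83 and 2.64 against at most 0.123. These are near-identical genes, so how reads divide between them is uncertain. KRT6A was uneven among members, since a UMI was found in 9.23% of thinned members of calf 1 but in 41.0% of those of calf 2. Of the 10 suprabasal keratins tested, 7 were higher and 1 was lower (0 without calf 3), with a median log2 difference of 3.26. The files hold 19 genes of this list. A gene with few UMIs passed the filter on low counts through the group in which it was high, so the counts describe the tested genes only. The lower gene, KRT36, had no UMI in any member and at most 0.0171 per 10000 in the other epithelial cells, near the floor of 3 UMIs over all members (0.0114), so no fold is given.

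Genes of the cornified envelope and of late differentiation followed. TGM1, the transglutaminase that cross-links the envelope, was at 2.66, 3.82 and 5.59 in members against 0.0405, 0.0665 and 0.0248 per 10000 (log2 difference 6.24 ± 0.27, adjusted p = 6.3e-116). IVL, the envelope protein involucrin, was at 3.56, 1.39 and 0.932 against 0.103, 0.0157 and 0.0111 (5.70 ± 0.29). Both sets of calves were apart for these genes. DMKN, a secreted protein of differentiating keratinocytes, was low in members at 0.312, 0.335 and 0.155 and at most 0.00536 elsewhere. CNFN, another envelope component, was at 0.125, 1.69 and 0, so the members of calf 2 carried nearly all of it and calf 3 overlapped with the other cells. ANXA1, which is cross-linked into the envelope, had the most UMIs of the list in members and differed least among calves, at 30.3, 32.0 and 30.5 against 15.3, 11.2 and 10.5, with a log2 difference of 1.16 ± 0.24 (adjusted p = 2.8e-05, and 0.36 without calf 2). Of 25 genes of the list that were tested, 20 were higher and 0 lower, with a median of 3.63, and without calf 3 the counts were 23 and 0. A gene with few UMIs passed the filter on low counts through the group in which it was high, so these counts are descriptions of the tested genes and not of all 34 genes of the list in the files.

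The S100 proteins, calcium-binding proteins that include the antimicrobial pair S100A8 and S100A9, were split. S100A8, a marker chosen with these data known, was at 39.1, 89.0 and 45.5 per 10000 in members against 3.18, 2.83 and 2.88 (log2 difference 4.00 ± 0.27), and its partner S100A9 at 12.6, 42.8 and 8.08 against 1.77, 1.53 and 1.01 (3.38 ± 0.27). S100A12 had the most UMIs of the family, at 191, 367 and 258 against 48.0, 35.2 and 35.8, a log2 difference of 2.55 ± 0.27 (adjusted p = 1.6e-18, and 0.087 without calf 2). Calf 2 was highest for all 3 genes, and members and other cells did not overlap. In the other direction, S100A4 was at 9.85, 7.47 and 6.37 in members and 29.7, 17.0 and 18.9 in the other epithelial cells (-1.61 ± 0.25), and S100A13 at 0.112, 0.170 and 0 against 0.959, 1.40 and 0.689. Of 13 genes tested, 8 were higher and 3 lower, with a median of 0.80.

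Inhibitors of proteases contrasted sharply between members and the remaining epithelium. SPINK5, which encodes the inhibitor LEKTI that restrains kallikreins in shedding skin, was at 11.3, 14.1 and 11.2 per 10000 in members against 0.113, 0.118 and 0.0343. A2ML1, a broad protease inhibitor of the alpha-2-macroglobulin family, was at 6.81, 5.75 and 11.03 against 0.0669, 0.0397 and 0.0208. The members of the 3 calves lay close together and far above the other cells, with log2 differences of 7.05 ± 0.29 and 7.35 ± 0.29, and both genes were chosen as markers with these data known. After thinning to 2000 UMIs, a SPINK5 UMI was found in 61.1% of members, 1.07% of the other epithelial cells, 0% of immune cells and 0.855% of endothelial cells (77.1% and 2.90% of members and other epithelial cells before thinning). SERPINB2, an inhibitor of plasminogen activators, was at 0.212, 0.346 and 0.777 against at most 0.0129. TMPRSS11D, a membrane protease of airway and other squamous surfaces, had 0.025, 0.0397 and 0.155, and KLK12, a kallikrein, had no UMI in members of calf 3. Of 24 genes of this list tested, 19 were higher and 1, SERPINB8, was lower, with a median of 3.08. Here too, genes with few UMIs passed the filter through the group in which they were high. The counts therefore describe the tested genes and not all 40 of the list in the files. The SERPINB8 call (adjusted p = 0.023) was lost without any one calf, with adjusted p of 0.068, 0.76 and 0.107 without calves 1, 2 and 3.

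**Figure D2:**
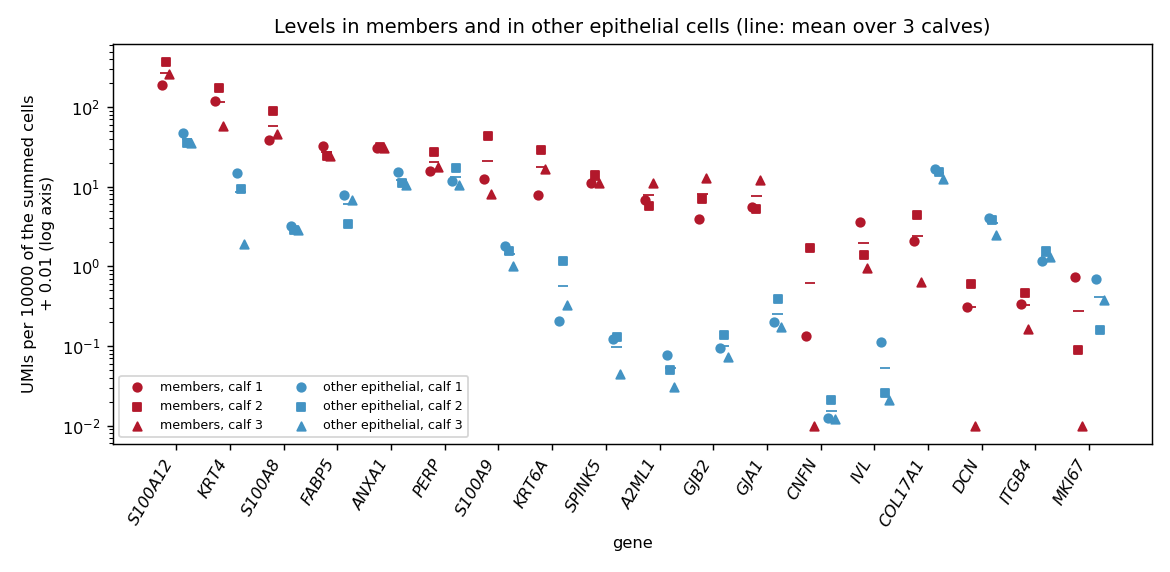
UMIs per 10000 of the summed cells plus 0.01 (y axis, log scale) for marker and list genes (x axis) in members (red) and other epithelial cells (blue) of each calf, with a line at the mean over 3 calves. SPINK5, A2ML1 and GJB2 are separated by wide gaps, ANXA1 by a narrow gap, PERP and MKI67 overlap, and COL17A1, DCN and ITGB4 are lower in members.

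Genes of cell contacts differed as well. Desmosomal genes were mostly higher, with 10 of 14 tested higher and 1 (the cadherin DSG2) lower, and with a median log2 difference of 1.32. PKP1, a plaque protein, was at 1.46, 2.38 and 3.73 per 10000 in members against 0.400, 0.347 and 0.296 (log2 difference 2.49 ± 0.24), and DSC2, a desmosomal cadherin, at 0.849, 0.806 and 0.932 against 0.103, 0.0722 and 0.0882. The cadherin DSG1 was at 0.599 and 1.25 in calves 1 and 2 and at 0 in calf 3, and so overlapped. PERP, with the most UMIs of the list, gave 15.96, 27.1 and 17.6 against 11.6, 17.1 and 10.6, with overlapping groups and an adjusted p of 0.20.

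Among gap and tight junction genes 7 of 25 tested were higher and 3 lower, with a median of 0.36. Of all genes 6.85% were higher and 13.9% lower, so the lower share of this list was near that of all genes. Connexins, which form gap junction channels, were called in both directions. GJB2 was at 3.97, 6.99 and 13.1 in members against 0.0838, 0.128 and 0.0629 (log2 difference 6.09 ± 0.27). GJA1 was at 5.62, 5.22 and 12.3 against 0.189, 0.383 and 0.164 (4.72 ± 0.26), and GJB6 at 0.137, 0.573 and 0.155 against at most 0.00343. Calf 3 was highest for GJB2 and GJA1, on 64359 UMIs of members, of which a single cell held 26455. The share of thinned endothelial cells with a GJA1 UMI was 16.2%, compared with 58.7% of members and 2.65% of the other epithelial cells. The connexin GJB5 was lower, at 0.0998, 0.272 and 0.155 against 0.212, 0.391 and 0.3499 (-0.82 ± 0.30, adjusted p = 0.033), where the groups overlap and the call was lost without any one calf (adjusted p of 0.256, 0.562 and 0.140 without calves 1, 2 and 3). The other two lower genes were claudins of tight junctions, CLDN3 at 0.0374, 0.0681 and 0 against 0.621, 0.216 and 0.224 (-2.66 ± 0.38), and CLDN1 at 1.90, 1.25 and 0.622 against 1.92, 3.27 and 4.61 (-1.18 ± 0.25, adjusted p = 4.2e-05 and 0.28 without calf 2).

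Genes of basal anchoring were mostly lower in members, with 17 of 27 tested lower, 3 higher and a median of -1.78, against 13.9% of all genes lower and a median of -0.31. COL17A1, a hemidesmosomal collagen, was at 2.08, 4.45 and 0.622 per 10000 against 16.7, 15.4 and 12.5, so the members of every calf lay below the other cells of every calf (log2 difference -2.81 ± 0.27, adjusted p = 8.6e-24). ITGB4, the hemidesmosomal integrin chain, was at 0.325, 0.460 and 0.155 against 1.15, 1.57 and 1.29 (-1.98 ± 0.27). LAMB3, a chain of the anchoring laminin, was at 0, 0.170 and 0 against 0.358, 0.845 and 0.501 (-2.89 ± 0.34). The genes that were higher do not anchor cells in the same way. CXCL14, a chemokine of epithelia, was at 1.45, 2.64 and 0.622 against 0.101, 0.403 and 0.217 (2.88 ± 0.25), SDC1, a cell surface proteoglycan, had an adjusted p of 1.8e-05 and of 0.21 without calf 2, and POSTN, a matrix protein, overlapped between groups and had an adjusted p of 0.11 without calf 1. KRT18, a keratin of simple epithelia outside the lists, had 2 UMIs in all members and 0.288, 0.437 and 0.143 per 10000 in the other epithelial cells. Since the limit of 10 per 10000 for basal keratins keeps cells with a basal remainder, these values hold for such cells only.

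Transcription factors of stratified epithelia moved in both directions. GRHL3, a grainyhead factor of barrier formation, was at 0.325, 0.375 and 0.777 against 0.0409, 0.0208 and 0.0118 (log2 difference 3.75 ± 0.34), and GRHL1 was at 0.537, 1.10 and 1.09 against 0.127, 0.104 and 0.0811 (2.81 ± 0.26). ZNF750, which drives late keratinocyte genes, was at 0.699, 1.11 and 0.932 against 0.159, 0.0898 and 0.0514 (2.96 ± 0.26). ID3, an inhibitor of differentiation factors, was lower at 0.499, 0.295 and 0.311 against 1.31, 1.17 and 0.921 (-1.81 ± 0.27). TP63, the master factor of squamous epithelia, overlapped, at 0.474, 0.216 and 0.777 against 0.533, 0.362 and 0.643 (adjusted p = 0.17). In all, 12 of 42 were higher and 8 lower (11 and 5 of 41 without calf 3), against 6.85% higher and 13.9% lower over all genes. The median of -0.31 equalled that of all genes.

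The Notch pathway passes signals between neighbouring cells through ligands and receptors and is active in suprabasal layers of skin. Of its 19 tested genes, 3 were higher and 7 lower, with a median of -0.73, against 6.85% higher and 13.9% lower over all genes. The receptor NOTCH3 was at 0.549, 0.778 and 0.311 against 0.117, 0.0856 and 0.0457 (2.66 ± 0.27), and the target gene HES2 at 0.150, 0.204 and 1.55 against at most 0.0318 (3.27 ± 0.40). The ligand DLL1 was lower, at 0.0250, 0.170 and 0 against 0.292, 0.680 and 0.797 (-2.48 ± 0.33), as was the receptor-modifying enzyme LFNG, at 0.0374, 0.0908 and 0 against 0.490, 0.577 and 0.762 (-3.12 ± 0.35). DLK2, a non-canonical ligand that was also counted among basal and granular markers, was at 0.0125, 0.562 and 0 against 1.17, 3.11 and 2.23. The target gene HEY1 had 1 UMI in all members.

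Lipid and ketone genes of the absorptive epithelium were partly higher. FABP5, an epidermal fatty acid carrier, was at 32.5, 24.3 and 24.1 per 10000 in members against 7.94, 3.36 and 6.87 (log2 difference 2.05 ± 0.25, adjusted p = 7.5e-15), and its relative FABP4 at 1.88, 0.443 and 14.6 against 0.166, 0.0592 and 0.664, so that calf 3 was far above the others. DEGS2, a desaturase of ceramides, was at 0.0749, 0.136 and 0.155 against at most 0.00243. Of 29 genes of barrier lipid handling 11 were higher and 4 lower, with a median of 0.65. BDH1, which interconverts the ketone bodies, was at 0.524, 0.443 and 1.24 against 0.137, 0.0771 and 0.138 (2.25 ± 0.26), and ACADS, which oxidises short-chain acyl-CoA, at 3.88, 3.76 and 7.77 against 1.03, 0.831 and 1.62 (1.93 ± 0.23). The members were above the other cells in every calf for both enzymes, and the calf 3 members were highest. As for FABP4, the calf 3 level comes from 7 members, the largest of which held 26455 of 64359 UMIs. The urea transporter SLC14A1 was higher too, at 1.01, 0.636 and 1.24 against 0.250, 0.0919 and 0.205, while CA3, a carbonic anhydrase, was lower, at 1.60, 1.71 and 0.155 against 12.04, 9.47 and 3.42 (-2.90 ± 0.27). Of 33 genes of ketone body and short-chain fatty acid metabolism 7 were higher and 4 lower, with a median of 0.18, and without calf 3 the counts were 8 and 1. SLC16A1, a carrier of short-chain acids and ketone bodies, was also among the 4 lower genes. Among all genes 6.85% were higher and 13.9% lower, so the lower shares of both the lipid and the ketone list were near that of all genes.

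Detoxifying genes were split, with 8 of 33 higher, 8 lower and a median of -0.14, against 6.85% higher and 13.9% lower over all genes. The glutathione transferases MGST3, at 14.1, 13.1 and 27.8 against 3.95, 2.67 and 3.49 (log2 difference 2.18 ± 0.24), and GSTA1, at 3.16, 0.454 and 3.57 against at most 0.0922 (4.53 ± 0.25), were higher. The peroxidase PRDX6 was at 6.88, 12.6 and 48.0 against 3.07, 2.97 and 6.28 (1.87 ± 0.24). An entry of GSTP1, another glutathione transferase, was among the 8 lower genes, with a UMI in 4.23%, 3.70% and 0% of members. SOD1, which removes superoxide, was lower at 0.587, 0.659 and 0.311 against 2.15, 2.09 and 2.78 (-2.02 ± 0.26). Subunits of the proton pump V-ATPase were higher in 7 of 18 cases and lower in 0, with a median of 0.51. ATP6V1B1 was at 1.05, 1.86 and 0.777 against 0.320, 0.571 and 0.115 (1.69 ± 0.25), while ATP6V0E1, with more UMIs, at 3.48, 3.17 and 2.18 against 3.15, 2.82 and 2.29, had an adjusted p of 0.93.

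Energy metabolism differed in part. Of 21 glycolytic genes 7 were higher and 3 (PDK4, PFKFB3 and LDHB) lower, with a median of 0.18, and of 40 nuclear-encoded respiratory genes 11 were higher and 2 (ATP5MC2 and SDHD) lower, with a median of 0.35. Over all genes 6.85% were higher and 13.9% lower, so the lower share of the glycolytic list was near that of all genes. Without calf 3 the respiratory counts were 10 and 0, and without calf 2 ATP5MC2 and SDHD were at adjusted p of 0.70 and 0.75. ENO1, a glycolytic enzyme, was at 5.53, 5.31 and 8.24 against 4.11, 2.13 and 2.88, and COX7A2, a subunit of cytochrome oxidase, at 9.87, 9.98 and 17.1 against 5.95, 3.71 and 4.64. Both were higher in every calf, with adjusted p of 0.0016 and 2.0e-05, and of 0.47 and 0.19 without calf 2. PDK4, a kinase that turns glucose away from oxidation, was lower at 0.524, 0.108 and 0.155 against 1.30, 0.722 and 2.66 (log2 difference -2.24 ± 0.28). The mitochondrial share was 11.02% in the members of calf 1 against 5.33%, but the mitochondrial coding genes were used by the rule and were not tested.

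Most genes of the cell cycle did not pass the test, in which 13.9% of all genes were lower and 6.85% higher. Of 38 tested, 11 were lower and 1, the cyclin CCND1, was higher (adjusted p = 0.00039, and 0.43 without calf 2), with a median of -0.50 (-0.27 without calf 3, where 6 were lower and 2 higher). MKI67, a marker of dividing cells, was at 0.724, 0.0795 and 0 per 10000 in members against 0.683, 0.148 and 0.367, which overlap (adjusted p = 0.23). In calf 1, a UMI of MKI67 was present in 13.9% of thinned members and 7.99% of thinned other epithelial cells, and in calf 2 in 0% and 1.28%. Members of calf 1 were thus above the other cells and those of calf 2 below them, and the 4 thinned members of calf 3 had no MKI67 UMI. CCND2, a D-type cyclin, was lower in every calf, at 0.424, 0.494 and 0 against 1.40, 1.38 and 1.64 (-1.86 ± 0.26).

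Immediate-early and heat-shock genes, which also respond to tissue dissociation, were lower in 17 of 30 cases and higher in 0, with a median of -0.88. For this and the next 2 lists, the shares over all genes were 13.9% lower and 6.85% higher. IER3 was at 1.90, 2.91 and 1.71 against 7.22, 6.81 and 5.93 (log2 difference -1.76 ± 0.25). FOS was at 3.87, 0.908 and 2.95 against 5.91, 6.71 and 8.03, with an adjusted p of 6.1e-11 and of 0.20 without calf 2. Immune signals of the epithelium were higher in 5 of 28 and lower in 12, with a median of -1.28. IL1RN, the antagonist of the interleukin-1 receptor, was at 0.0998, 0.426 and 0.466 against 0.00358, 0.0645 and 0.0591 (2.96 ± 0.37), and the decoy receptor IL1R2 was lower at 0.112, 0.670 and 0.155 against 1.38, 2.22 and 3.22 (-2.63 ± 0.28). TAP, an antimicrobial peptide of the beta-defensin family whose copies resemble each other, was at 0, 0.0397 and 1.09, which is mostly calf 3. There, 14.3% of the 7 members had a TAP UMI. Of 10 genes of the epidermal growth factor family 2 (BTC and ERBB3) were higher and 1 (EGFR) was lower (3 and 0 without calf 3), with a median of -0.32, and ERBB3, a receptor of the family, was at 0.387, 0.556 and 0.466 against 0.153, 0.173 and 0.0620 (adjusted p = 4.8e-07, and 0.070 without calf 2).

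**Figure D3:**
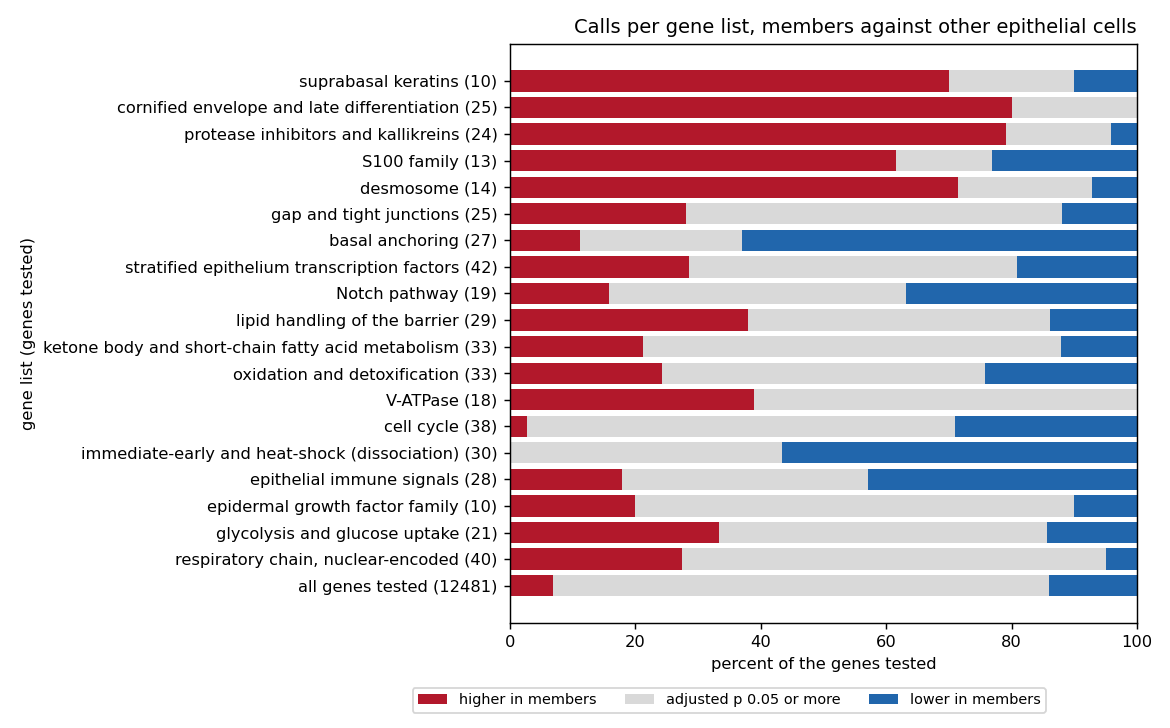
Percent of the tested genes of each list (x axis) that were higher in members (red), lower (blue) or at an adjusted p of 0.05 or more (grey), with the number tested in brackets (y axis) and all 12481 genes at the bottom. Cornified envelope, protease inhibitor, desmosome and suprabasal keratin lists are mostly red, basal anchoring and immediate-early lists are mostly blue.

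Outside the lists, the genes with the widest differences included TMPRSS11BNL, related to membrane serine proteases, at 1.10, 2.67 and 2.80 per 10000 in members against 0.0119, 0.0237 and 0.00561 (log2 difference 6.97 ± 0.29). ARG1, the arginase of the urea cycle, was at 0.786, 2.23 and 2.33 against 0.0105, 0.0208 and 0.00274 (6.87 ± 0.29). SULT2B1, which sulfates cholesterol in cornifying epithelia, was at 0.275, 1.09 and 0.777 against 0.0131, 0.0190 and 0.00356 (5.39 ± 0.32). Retinoid handling was touched through RBP2, a cellular retinol carrier, at 1.49, 0.920 and 1.86 against 0.0455, 0.0160 and 0.0211 (5.46 ± 0.26), and through DHRS3, a retinal reductase that was lower at 0.0250, 0.136 and 0 against 0.308, 0.849 and 1.41 (-3.06 ± 0.34). BPIFA2C, of a family of secreted proteins, was at 1.73, 2.42 and 33.7 against 0.0647, 0.0968 and 0.113 (5.61 ± 0.28). The calf 3 sum stood far above those of the other calves, but a single cell held 26455 of its 64359 UMIs. LBP, which binds bacterial lipopolysaccharide, was at 0.112, 0.119 and 0.622 against at most 0.00400. CDO1, which breaks down cysteine, was lower at 0.0125, 0.0511 and 0 against 0.658, 0.232 and 0.775, and SMOC2, a matrix protein, at 0.0374, 0.0681 and 0 against 0.500, 0.399 and 0.445. The member values of the genes in this group that were higher lay above all other values in every calf.

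Across KRTDAP levels, the members formed a part of a graded series. The epithelial cells were summed in bands of KRTDAP, and in calf 1 KRT15 was at 117 per 10000 in cells without KRTDAP, 106 above 0 and under 5, 67.7 from 5 to 10, 42.1 from 10 to 30, 36.6 from 30 to 100 and 11.9 at 100 or more. In calf 2 the values were 128, 130, 75.1, 62.4, 31.6 and 23.2, so KRT15 did not fall at the first step. The band above 0 and under 5 had a median of 1 KRTDAP UMI per cell. Its cells were also deeper than those without KRTDAP, with medians of 12893 and 8156.5 UMIs against 10027 and 6688 in calves 1 and 2. The part of depth and free RNA in this first step was not tested. The hemidesmosomal COL17A1 was at 17.4 and 15.6 without KRTDAP in calves 1 and 2, at 7.31 and 7.43 from 5 to 10, 2.19 and 5.47 from 10 to 30 and 0.660 and 1.73 at 100 or more. Both genes were thus lowest at the top of the range. KRT4 was at 11.99 and 7.23 without KRTDAP in the same calves, 22.9 and 18.7 above 0 and under 5, 66.9 and 86.6 from 5 to 10, 99.6 and 141 from 10 to 30, 162 and 222 from 30 to 100 and 299 and 364 at 100 or more. SPINK5 was at 0.0300 and 0.0543 without KRTDAP, 2.48 and 3.89 just below the limit, 7.75 and 11.4 just above it and 15.1 and 18.0 from 30 to 100. The values just inside and just outside the limit therefore differ by less than those at the ends of the range. The band of 100 or more held 4 and 9 cells in calves 1 and 2, the band of 30 to 100 held 14 and 53, and calf 3 had no member of 30 or more.

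FABP5 and MGST3 took another course. FABP5 was at 6.32 and 2.63 per 10000 in cells of calves 1 and 2 without KRTDAP, at 32.0 and 27.1 from 5 to 10, 35.7 and 27.6 from 10 to 30, 24.7 and 19.4 from 30 to 100 and 9.57 and 6.65 at 100 or more. It was thus highest in the middle bands and lower again at the top in both calves. MGST3 was highest at 15.0 from 10 to 30 in calf 1 and 13.5 from 30 to 100 in calf 2. These levels are descriptions without a test, since KRTDAP set the bands.

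**Figure D4:**
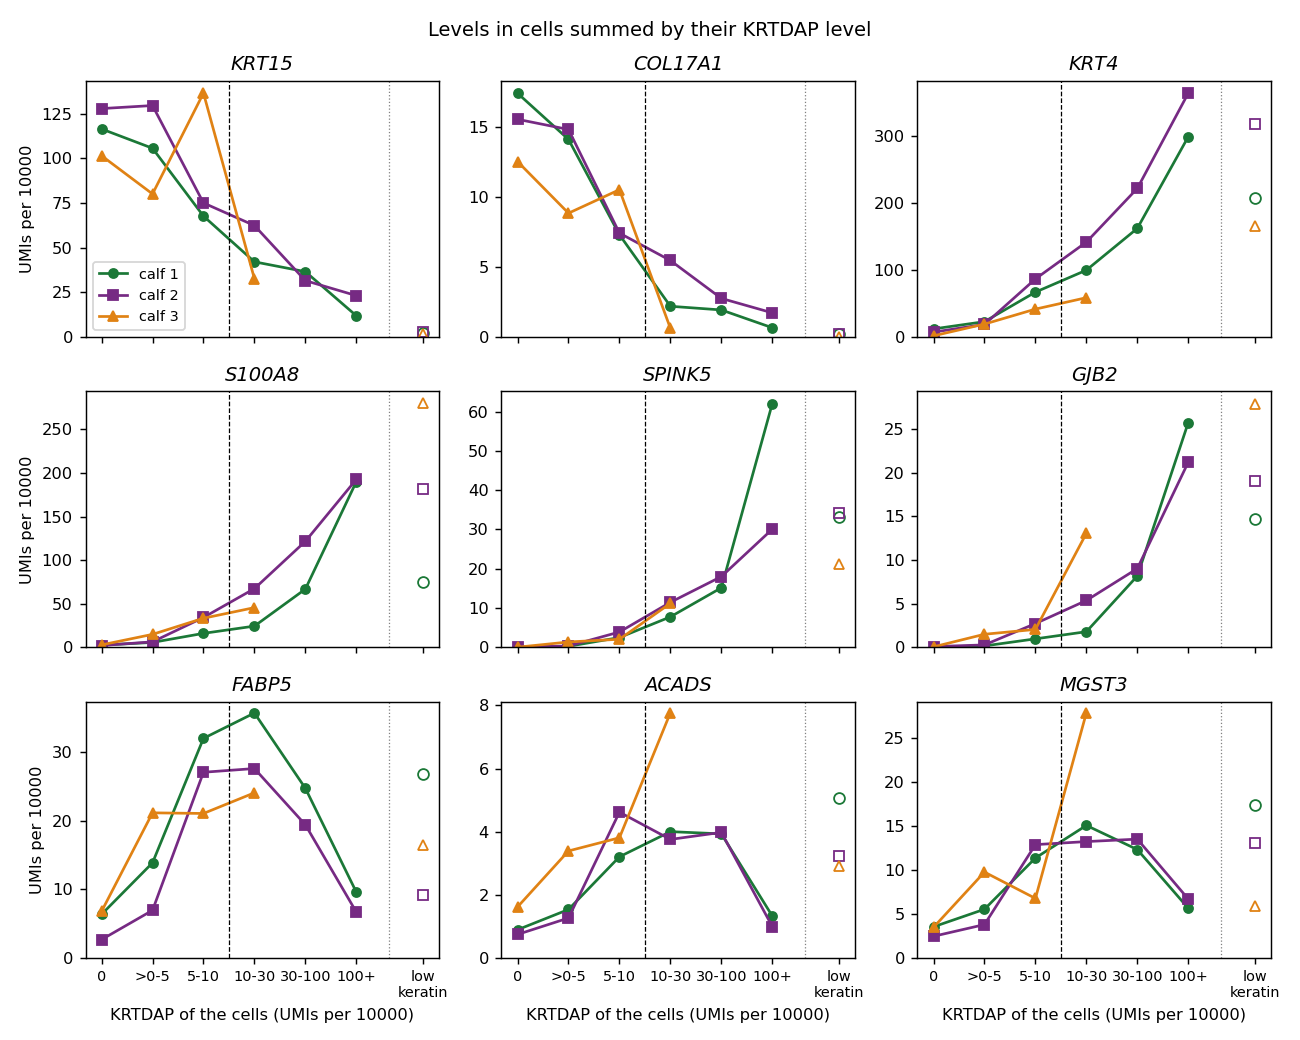
UMIs per 10000 of summed epithelial cells (y axis) by the KRTDAP level of the cells (x axis) in each calf, with the limit for members as a dashed line and the cells with little basal keratin as open symbols at the right. KRT15 and COL17A1 are lowest and KRT4, S100A8, SPINK5 and GJB2 highest at the top of the range in calves 1 and 2, and FABP5 peaks in between. Calf 3 has no members of 30 or more.

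Inside the members, the planned division at a KRTDAP of 30 per 10000 left only calf 2 with at least 20 cells on each side, so it was not tested. A division at 20, which calves 1 and 2 allowed, called 159 of 4868 genes, with 117 (2.40%) higher and 42 (0.863%) lower in members of 20 or more. Of the cornified envelope list 11 of 20 were higher, among them CNFN (log2 difference 3.33 ± 0.37) and SBSN, a secreted protein of suprabasal cells (3.05 ± 0.32). Suprabasal keratins were higher in 5 of 8 cases, among them KRT6A (2.18 ± 0.17) and KRT10 (2.19 ± 0.31), and protease inhibitors in 8 of 20, with A2ML1 at 2.11 ± 0.18 and SPINK5 at 1.63 ± 0.16. Cell cycle genes were lower in 6 of 19 cases, MKI67 by -4.50 ± 0.67 and TOP2A, a topoisomerase of dividing cells, by -2.65 ± 0.38, while CDKN1A, an inhibitor of the cycle, was higher at 0.71 ± 0.19. A UMI of MKI67 was present in 21.1% and 2.47% of all members of calves 1 and 2, and of TOP2A in 29.6% and 4.94%. Both genes were thus scarce in the members of calf 2. S100A8, S100A9 and S100A12 were higher, and S100A7 (-1.72 ± 0.20) and S100A2 (-0.45 ± 0.10) lower. FABP5 (-0.50 ± 0.13) and FABP4 (-1.14 ± 0.28) were lower, as were ID1 (-0.99 ± 0.25) and ID3 (-1.42 ± 0.36). With 2 calves this test has few degrees of freedom among samples, and calf 3, with 7 members, took no part.

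Calf 3 had few KRTDAP-high cells, while cells high in S100A8, another marker of the members, were present. Epithelial cells with at least 10 S100A8 UMIs per 10000 made up 8.13%, 6.50% and 6.39% in calves 1, 2 and 3, which were 377, 593 and 519 cells. KRTDAP in the sum of these cells was 5.02, 10.4 and 0.218 per 10000, and 58, 154 and 7 of them were members. KRT4 at 10 or more was found in 37.0%, 20.5% and 2.90% of epithelial cells, and SPINK5 at 10 or more in 39, 103 and 10 cells, of which 28, 84 and 4 were members. The shares of S100A8-high cells were thus close in calves 2 and 3, KRT4-high and SPINK5-high cells were scarcer in calf 3, and with 1 group of 3 calves the difference between calves was not tested.

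**Figure D5:**
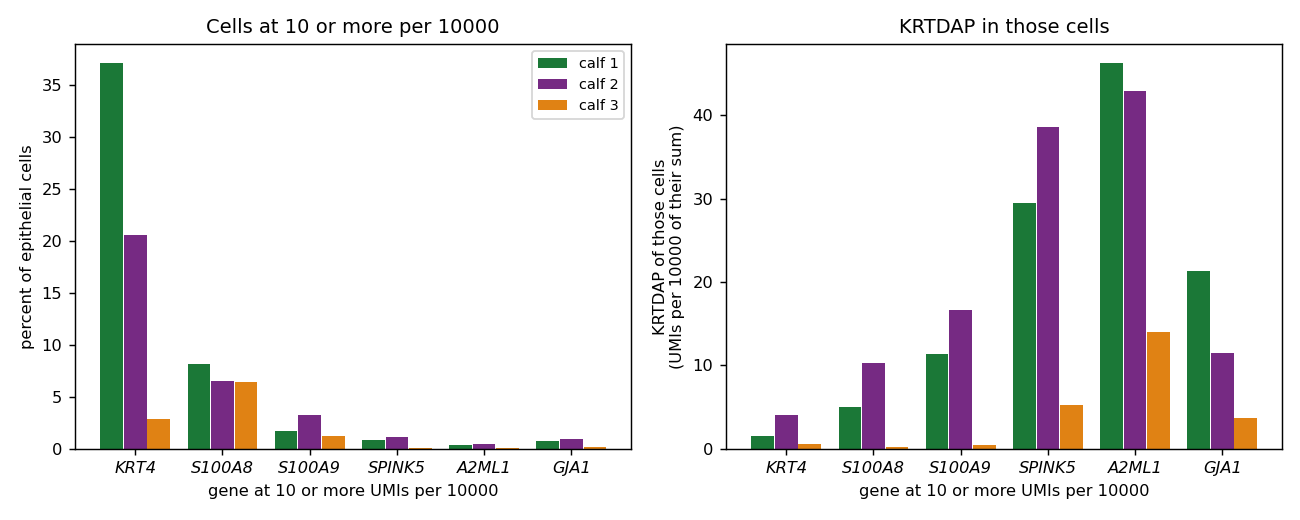
Left, the percent of epithelial cells (y axis) with at least 10 UMIs per 10000 of the gene on the x axis, and right, the KRTDAP level in the sum of those cells, for each calf. The S100A8 bars at the left are of like height (8.13%, 6.50% and 6.39%), and at the right the calf 3 bar is 0.218 against 5.02 and 10.4.

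The limit on basal keratin left out cells that carried more transcript of many cornified envelope and protease inhibitor genes than the members did. A further 184 cells had at least 10 KRTDAP per 10000, no UMI of the immune, endothelial or fibroblast gene and under 10 per 10000 of basal keratin, 82 in calf 1, 95 in calf 2 and 7 in calf 3. Their median KRTDAP was 56.2, their median basal keratin 3.52 and their median UMIs 14972.5. In a comparison added after the data were seen, edgeR called 505 of 6697 genes between the members and these cells, with 206 (3.08%) higher and 299 (4.46%) lower in members, and the count was 978 without calf 3, 111 without calf 1 and 27 without calf 2. Of the cornified envelope list 13 of 23 were lower in members and 0 higher, and of the protease inhibitor list 12 of 26 were lower and 1 higher. Of 9 suprabasal keratins 2 were lower in members and 1, KRT6B (log2 difference 1.92 ± 0.35), was higher. Of 12 desmosomal genes 0 were called. With all calves KRT6A (0.70 ± 0.40), GJA1 (-0.10 ± 0.27) and FABP5 (0.61 ± 0.24) were not called either. Without calf 3, KRT6A (1.63) and FABP5 (0.67) were called higher in members. SPINK5 was at 33.1, 34.2 and 21.2 and A2ML1 at 24.7, 21.5 and 33.9 in the cells with little basal keratin, each above the member values of the same calf. Of 26 cell cycle genes 19 were higher in members and 0 lower, with TOP2A at a log2 difference of 3.23 ± 0.39. Of 14 basal anchoring genes 7 were higher and 0 lower, with COL17A1 at 3.50 ± 0.31. Members also had more of CA3 (2.96 ± 0.27) and of SLC16A1 (2.30 ± 0.31) than the cells with little basal keratin. Against the other epithelial cells, CA3 and SLC16A1 were both lower in members. V-ATPase subunits were lower in members than in the cells with little basal keratin in 7 of 16 cases. Basal keratin set these groups apart, so the basal genes are read as a description.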

How the data were processed

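Single cells of the ventral rumen sac of 3 newborn calves were profiled with the Chromium Single Cell 3′ v3 kit. The deposited values are raw UMI counts per gene and barcode for 27270 genes, which the authors made with Cell Ranger 3.1.0 (submitters' processing notes) on the bovine ARS-UCD1.2 genome. Levels are UMIs per 10000 UMIs of a cell or of summed cells, and come from the 3′ end of transcripts.

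The members, markers, 19 gene lists and alternatives were chosen with earlier results of these data known. Counts were summed per calf and group and tested with edgeR 4.0.16 in R 4.3.3 (TMM, filterByExpr, calf as a block, quasi-likelihood test, two-sided, Benjamini-Hochberg over all genes tested, threshold 0.05). Both sums of a calf come from the same animal. Their deviations from the group means correlated at 0.349, 0.394 and 0.202 over 12481 genes. The 20 genes of the rule stayed in library sizes and were not tested. P-values and SEs rest on 3 animals, each with 1 library, and on a dispersion that edgeR shares across genes. For a single gene they do not measure its own spread among calves alone. The values per calf show that spread. Genes named are, per list, up to 4 called each way with the largest log2 difference and the most abundant one, and outside the lists the 15 highest and 10 lowest with at least 20 CPM; cell type markers and genes of a count of 5 or fewer were added, and TGM1, IVL, SERPINB2, ITGB4 and IL1RN were named after their values were seen; 1 gene of the naming rule is not reported here.

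Doublets were not removed in the main result; a Scrublet score in Scanpy 1.11.5 marked 11 of 240 members and was used as an alternative. For shares, each cell with at least 2000 UMIs was thinned to 2000, which left 65, 139 and 4 members and 21096 of 21644 other epithelial cells, with 32 members too shallow. Other alternatives were DESeq2 1.42.0, its size factors, filters on low counts, other limits for KRTDAP, keratin, genes and mitochondrial share, the omission of cycling cells and of each calf. The test was checked on simulated counts. It recovered 0%, 32%, 68% and 74% of the genes changed by a log2 difference of 0.5, 1, 2 and 3. Of its calls there, 2.25% were false. A gene without a call may therefore still differ. Symbols of the lists that the files lack, such as KRT13 and FLG, were not analysed here, and no sequence is given.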

Additional observations from a re-analysis of the deposited data

Results flagged for a closer look

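The cells left out by the lower limit on basal keratin carried a signal outside the main comparison. Of 447 kept barcodes with KRTDAP of at least 10 per 10000, 184 had under 10 per 10000 of KRT5, KRT14 and KRT15 and no UMI of PTPRC, PECAM1 or COL3A1, against 240 members, and 23 had a UMI of one of these 3 genes. The 184 cells were divided as 82, 95 and 7 among calves 1, 2 and 3, as many as the members in calf 3 and more than the members in calf 1. Their median UMIs were 16027.5, 14170 and 2982, so those of calf 3 were shallow, and their median mitochondrial share was 6.53%, 8.33% and 0.584%. S100A8 was at 74.8, 181 and 280 per 10000 and KRT4 at 207, 317 and 166 in their sums. A further 50 cells met every limit for members other than the ceiling of 4000 genes. No explanation for these cells was tested.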

How the results depend on the processing

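The comparison with the other epithelial cells called 2596 genes (855 higher, 1741 lower). DESeq2 called 1042 (545 higher, 497 lower), a minimum of 10 counts in every sum 329 of the 812 genes left, no replicate block 746 (410 higher, 336 lower), at most 15% mitochondrial UMIs 1621 (730 higher, 891 lower) and thinning to 2000 UMIs before the limits 777. Leaving out each calf in turn gave 432 to 2052 calls, and without calf 3, 957 were higher and 1095 lower. The totals of the alternatives not named here stayed within 1.5 times, from 1962 (894 higher, 1068 lower; KRTDAP of at least 20) to 3591 (1563 higher, 2028 lower; any keratin level, added after seeing the data), and basal keratin of at least 2 gave 1390 higher and 1817 lower. The higher calls were thus over 1.5 times the 855 under both keratin limits. DESeq2 size factors gave 951 higher and 1401 lower. Of the 2596 calls, 1040 were among the DESeq2 calls and 429 remained without calf 2. The share of epithelial cells that were members, 1.13%, lay between 0.567% and 1.93% under the other limits, and between 0.809% and 1.65% with each calf left out. Inside the members, a division at 30 could not be fitted, and the division at 20 called 159 genes. The comparison with low-keratin cells called 505 genes, 17 with no replicate block and 27 to 978 with each calf left out. Over the named genes, 2382 values kept their direction and side of the threshold, 312 lost and 21 gained the call, and 4 reversed: the log2 difference of B2M was 0.027 with any keratin level, and that of PFKP -0.41 with KRTDAP of at least 20, -0.75 after thinning and -0.20 to 2.28 with each calf left out (lowest without calf 2). The causes were not tested. Depth limits calf 3, whose 7 members hold 64359 UMIs.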
